A study of Mus musculus with 6 samples.

Results

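The 173 loci described here were coding loci whose level differed at least 4-fold among the 3 libraries of undifferentiated mouse embryonic stem (ES) cells. They were chosen from 18420 loci in the deposited count table. A locus counted as coding if it held a transcript matching the annotation and a protein identifier on any transcript. There were 13764 coding loci off the X and Y chromosomes. Of these, 8875 also had a mean of at least 500 normalized counts at day 0 and at least 100 in 1 or more day 6 libraries. The 173 members were those in which the largest day 0 value was at least 4 times the smallest, and the remaining 8702 served as the comparison. A normalized count is a read count divided by a size factor of its library. Because the day 0 values chose the members, their spread and order at day 0 are given as a description, without a test.

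Poly(A)-selected RNA was sequenced from embryoid bodies at day 6 of cardiac differentiation, formed in hanging drops, and from undifferentiated ES cells at day 0, with 3 libraries each, which the series' design text calls biological replicates. Both stages derived from 1 reporter ES cell line, an E14Tg2A.4 derivative with an Nkx2.5-EmGFP bacterial artificial chromosome, kept in medium with the cytokine LIF before differentiation. Culture was on fibroblast feeders from mouse embryos or on gelatin, and which of them applied to each library is not labelled. The strain is labelled C57BL/6J, whereas the growth protocol gives 129/OlaHsd for the line. Libraries held 106306699 to 114092201 reads. The files hold no gene names, and of their 18420 locus and 55308 annotation identifiers 0 were found in the gene name lists used. Loci are therefore identified by their number in the assembly and their mm9 position, and the labelled cell types could not be checked against markers.

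ES cells are derived from the inner cell mass and can give rise to all tissues of the embryo. In culture they are known to move between a naive state and states closer to differentiation, so that a gene can differ in level between cells and between cultures of 1 line. Embryoid bodies are aggregates in which ES cells leave the pluripotent state and form cells of several germ layers. In bulk RNA, fewer cells of a type and less RNA per cell cannot be told apart.

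The day 0 libraries did not contribute evenly to the spread. Replicate 2 was the lowest of the 3 in 127 members (73.4%), against 36.3% of the 8702 other loci. It was the highest in 35 members (20.2%) and in 42.3% of the other loci, and either the highest or the lowest in 162 members. Replicate 1 was the highest in 92 members (53.2%) and in 33.9% of the other loci. When the rule was applied to pairs of day 0 libraries, 16 loci met it without replicate 2, 72 without replicate 1 and 118 without replicate 3. Most members thus passed the threshold only with replicate 2 among the libraries. Replicate 2 had the smallest size factor of the day 0 libraries, 0.966, against 1.15 for replicate 1 and 1.00 for replicate 3. Counts are divided by this factor, so a smaller one gives higher normalized counts. The part of the size factors in the count of members was not tested apart from the other scalings that follow. Of these, TMM factors gave 173 members, of which 170 were shared, while scaling to the library total gave 258 with 163 shared and quantile normalization 165 with 140 shared. Replicate 2 was the lowest in 71.7% of the members under TMM (34.8% of the other loci), in 86.4% under library totals (4336 of 8676 other loci) and in 57.6% under quantile normalization (36.8%).

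**Figure D1:**
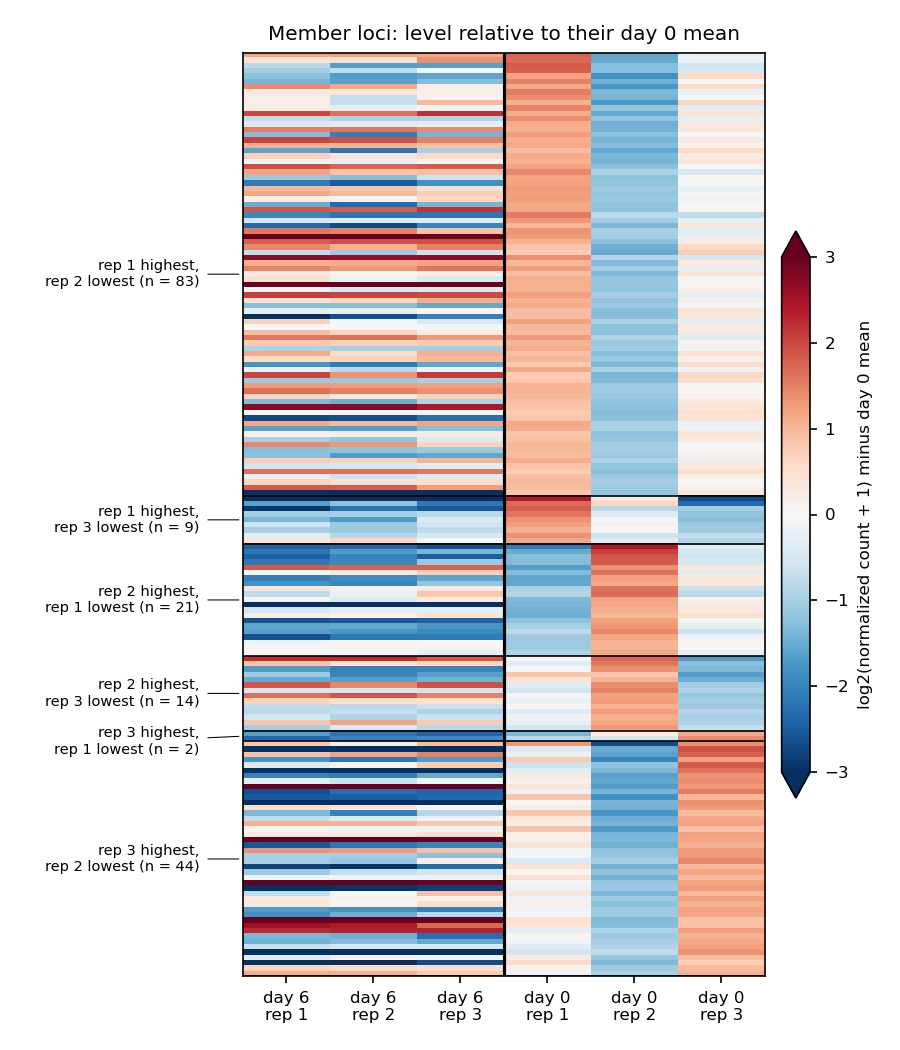
Each row is 1 of the 173 member loci and each column 1 library, coloured by log2(normalized count + 1) minus the mean of the 3 day 0 libraries, with colours ending at -3 and 3. Rows are grouped by the highest and lowest day 0 replicate, and the largest blocks, of 83 and 44 loci, have replicate 2 lowest.

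By order of the day 0 libraries, the largest group held 83 members (48.0%) with replicate 1 highest and replicate 2 lowest, an order shown by 23.3% of the other loci. Its size depended on the scaling, with 161 loci under library totals and 53 under quantile normalization. The next, with 44 members (25.4%), had replicate 3 highest and replicate 2 lowest, against 13.0% of the other loci. The opposite order to the largest group, replicate 2 highest and replicate 1 lowest, held 21 members (12.1%) and 28.7% of the other loci, and 35 members under quantile normalization. Replicate 2 was highest and replicate 3 lowest in 14 members. Replicate 1 was highest and replicate 3 lowest in 9, and replicate 3 highest and replicate 1 lowest in 2. The median ratio of largest to smallest day 0 value ran from 4.81 in the group of 83 to 6.2 in the group of 9.

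**Figure D2:**
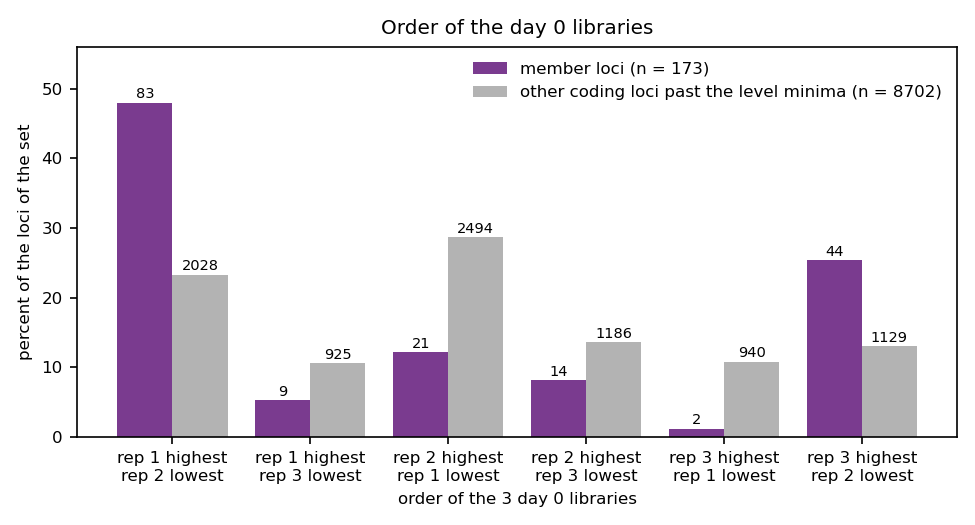
Bars give the percentage of loci with each order of the 3 day 0 libraries, for 173 member loci and for 8702 other coding loci past the level minima, and numbers above bars are counts. Both orders with replicate 2 lowest are more frequent among members, at 48.0% and 25.4%, than among other loci, at 23.3% and 13.0%.

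In the group of 83, the middle library lay somewhat closer to the high one on the log2 scale. The middle day 0 value was a median 2.46 times the lowest and the highest 1.87 times the middle. In the group of 44 these ratios were 2.67 and 2.14. In the 21 loci with replicate 2 highest and replicate 1 lowest they were 2.17 and 2.44. The middle value was at least 2 times the lowest in 62 of the 83 loci and in 34 of the 44.

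Locus XLOC_034660 (chromosome 8, 88016516 to 88051850, plus strand, up to 12 exons) had the highest day 0 mean of the group of 83. It stood at 16794, 11516 and 15822 normalized counts in day 6 replicates 1, 2 and 3, against 13964, 3109 and 10015 in day 0 replicates 1, 2 and 3. Day 0 replicate 1 lay inside the day 6 range, replicate 3 a little below it and replicate 2 far below. Locus XLOC_005306 (chromosome 11, 20202182 to 20233005, minus strand, up to 8 exons) had the same shape, with 16312, 12599 and 17191 normalized counts at day 6 and 10748, 2188 and 9115 at day 0. Its 3 day 6 values all lay above the day 0 values. The log2 change was 1.35 (SE 0.53, limma adjusted p = 0.0712), which did not pass the threshold of 0.05. It passed when day 0 replicate 1 was left out (log2 change 1.77, adjusted p = 0.0298) or when replicate 2 was (log2 change 0.62, adjusted p = 0.0162). With all libraries it passed with 1 weight per stage (limma adjusted p = 0.0236) and with replicate number as a block (0.00425). It did not pass in the other alternatives, among them edgeR (adjusted p = 0.118) and DESeq2 (0.065).

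The largest ratios of that group were in loci of lower level. XLOC_007215 (chromosome 12, 106692052 to 106731306, plus strand, up to 2 exons) had 879.1, 925.7 and 896.6 normalized counts at day 6, and 1327, 131.5 and 345.0 in day 0 replicates 1, 2 and 3. The 3 day 6 values were within a ratio of 1.05 and fell between the highest and the middle day 0 value, while the day 0 values spanned a ratio of 10.1. XLOC_025804 (chromosome 4, 139515408 to 139523941, minus strand) was the only member with a single exon. It had 605.3, 654.0 and 1198 normalized counts at day 6 and 1495, 158.5 and 406.8 at day 0, and the stages overlapped.

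The highest day 0 means among the 44 loci with replicate 3 highest and replicate 2 lowest were those of XLOC_029037 and XLOC_000740. XLOC_029037 (chromosome 6, 4454558 to 4491561, plus strand, up to 54 exons) had 13094, 12136 and 6889 normalized counts in day 6 replicates 1, 2 and 3, and 34649, 15415 and 68494 in day 0 replicates 1, 2 and 3. All day 6 values lay below the day 0 values, and limma gave an adjusted p = 0.024 for a log2 change of -1.69 with an SE of 0.49. The call was lost without day 0 replicate 1 (adjusted p = 0.0548), day 0 replicate 3 (0.0718) or day 6 replicate 3 (0.088), and with neither trend nor robust estimation (0.0537). XLOC_000740 (chromosome 1, 182865132 to 182905235, plus strand, up to 26 exons) had 3096, 3584 and 4923 normalized counts at day 6 and 47565, 12693 and 53353 at day 0. Here day 0 replicates 1 and 3 were close to each other and replicate 2 was low, and the stages did not overlap (log2 change -3.07, SE 0.50, limma adjusted p = 0.00162).

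The largest ratio of this group was that of XLOC_019777 (chromosome 2, 119176417 to 119183312, plus strand, up to 3 exons). It had 7533, 4855 and 8387 normalized counts at day 6 and 10556, 669.0 and 11376 at day 0, so that day 0 replicate 2 was below every other library of either stage and the other day 0 libraries were above them all. The means of the stages were 6925 ± 1843 for embryoid bodies and 7534 ± 5959 for ES cells (SD, n = 3 each). They were closer to each other than the day 0 spread. The log2 change of 0.64 was not called (limma adjusted p = 0.618). Without day 0 replicate 2 it turned to -0.70, and the locus was called lower at day 6 (limma adjusted p = 0.039). XLOC_036243 (chromosome 9, 7445822 to 7455974, plus strand, up to 10 exons) instead had 1 high library. It held 138.9, 212.2 and 409.2 normalized counts at day 6 and 4261, 1947 and 20788 at day 0, with no overlap between the stages.

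The largest ratio of all 173 members was 33.7, in XLOC_032619 (chromosome 7, 19888037 to 19895742, minus strand, up to 5 exons), which belongs to the 9 loci with replicate 1 highest and replicate 3 lowest. It had 276.8, 334.2 and 218.2 normalized counts in day 6 replicates 1, 2 and 3, against 14660, 3445 and 434.7 in day 0 replicates 1, 2 and 3. The lowest day 0 library was still above every day 6 library (log2 change -3.36, SE 1.05, limma adjusted p = 0.0314). The call was lost without any 1 library other than day 0 replicate 3 (adjusted p = 0.0542 to 0.09) and with neither trend nor robust estimation (0.0632). Without day 0 replicate 1 the log2 change was -2.16. XLOC_007083 (chromosome 12, 86814485 to 86818227, plus strand, up to 4 exons) had the same order, with 1862, 2454 and 1303 normalized counts at day 6 and 18478, 8935 and 1150 at day 0. In that locus day 0 replicate 3 was below all day 6 libraries while the other day 0 libraries were above them.

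Loci with replicate 2 highest included the member with the largest day 0 level, XLOC_008497 (chromosome 13, 16102848 to 16126262, plus strand, up to 5 exons). It had 163.2, 237.8 and 221.3 normalized counts at day 6 and 17927, 103935 and 54280 in day 0 replicates 1, 2 and 3. This was also the lowest ratio of day 6 to day 0 mean among the members, 0.00353. XLOC_027560 (chromosome 5, 38900686 to 38953710, minus strand, up to 17 exons) had 19393, 22971 and 21366 normalized counts at day 6 and 10127, 44358 and 22019 at day 0. Its day 6 values lay inside the day 0 range and near the middle day 0 value. XLOC_027572 (chromosome 5, 44370094 to 44373001, minus strand, up to 2 exons) had 288.0, 395.7 and 496.9 normalized counts at day 6 and 449.3, 5322 and 901.4 at day 0, with 1 high day 0 library. XLOC_016772 (chromosome 18, 38745803 to 38805576, plus strand, up to 3 exons) had 201.8, 214.3 and 175.4 normalized counts at day 6 and 256.5, 5755 and 884.5 at day 0, a day 0 ratio of 22.4. It shares 42.8% of its exonic sequence with exons of other loci.

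In XLOC_024471 (chromosome 4, 101024310 to 101140376, plus strand, up to 11 exons), replicate 2 was highest and replicate 3 lowest. Day 6 libraries held 9199, 9495 and 8826 normalized counts and day 0 libraries 8906, 37351 and 6894. The high day 0 library stood alone. XLOC_007460 (chromosome 12, 55279966 to 55305935, minus strand, up to 6 exons) had 12354, 11057 and 10589 at day 6 and 6625, 18409 and 3720 at day 0. Its day 6 values again lay inside the day 0 range. XLOC_010460 (chromosome 14, 45839392 to 45921564, plus strand, up to 8 exons), with 51.6% of its exonic bases also in exons of other loci, had 2255, 1701 and 1935 at day 6 and 996.2, 3679 and 515.5 at day 0. XLOC_005551 (chromosome 11, 63698195 to 63737164, minus strand, up to 3 exons), of the same order, had 6659, 6736 and 5142 normalized counts at day 6 and 1422, 4703 and 438.7 at day 0, all lower than at day 6 (limma adjusted p = 0.0417). This call was lost with edgeR (adjusted p = 0.124), with DESeq2 (0.16), with quantile normalization (0.0569), with neither trend nor robust estimation (0.0798), and without any 1 library other than day 0 replicate 2 (0.0824 to 0.103). Without day 0 replicate 3 the log2 change was 1.25.

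Only 2 members had replicate 3 highest and replicate 1 lowest, and day 6 was below day 0 in both. XLOC_010208 (chromosome 14, 21655884 to 21662610, plus strand, up to 11 exons) had 467.4, 601.8 and 638.8 normalized counts at day 6 and 1321, 1628 and 6411 at day 0. XLOC_000705 (chromosome 1, 176102907 to 176178580, plus strand, up to 52 exons) had 374.1, 252.2 and 224.4 at day 6 and 463.2, 1357 and 2624 at day 0, with no overlap in either locus.

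**Figure D3:**
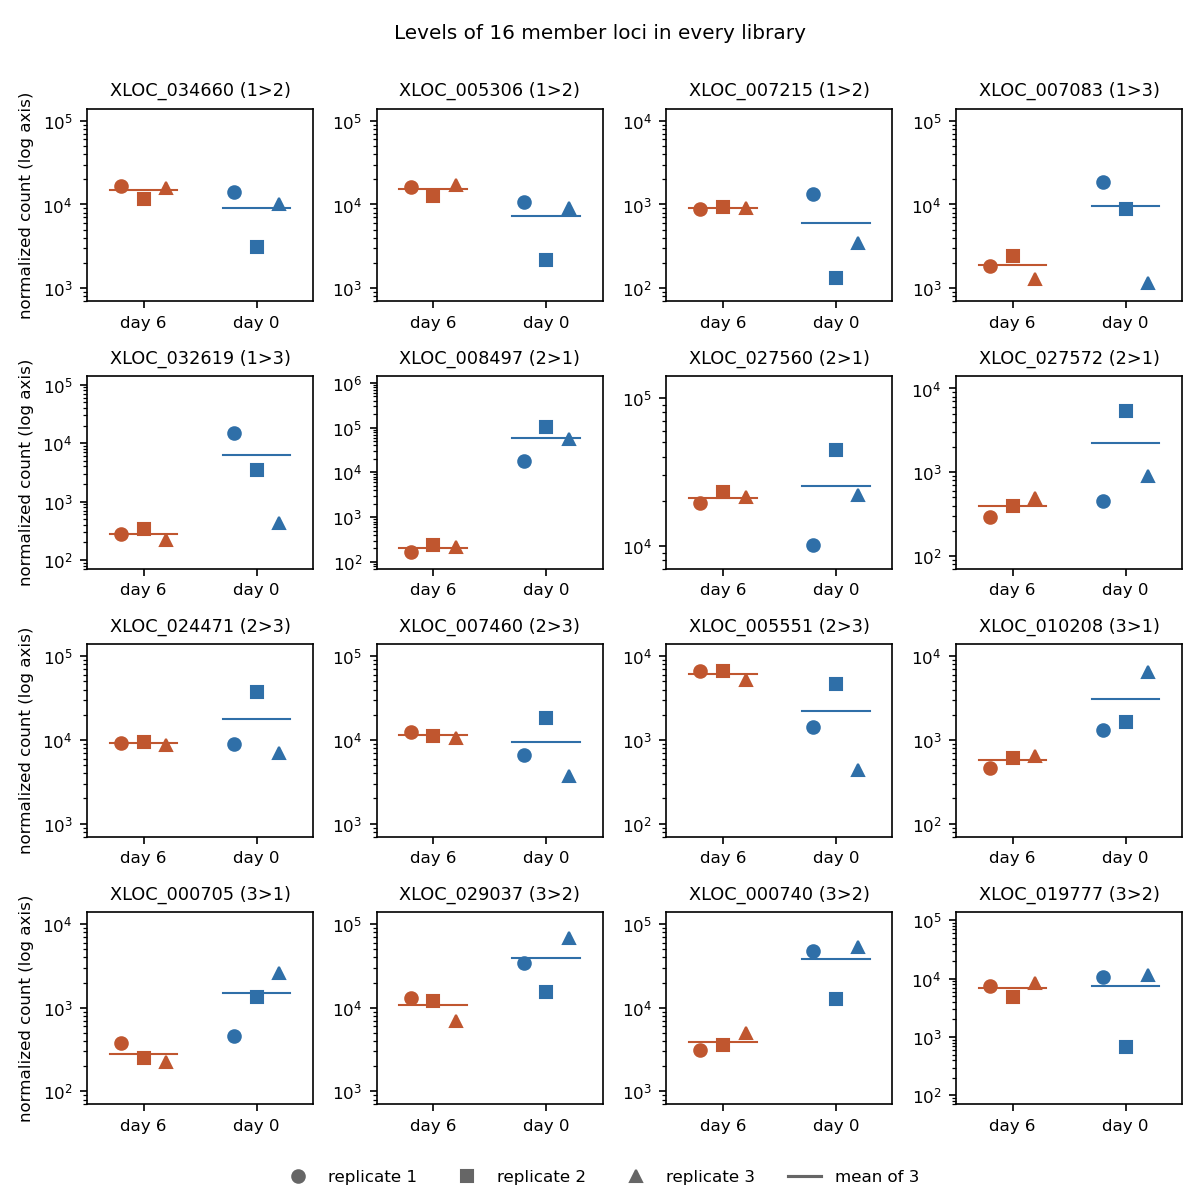
Each panel gives 1 member locus, with its order of day 0 libraries in brackets (1>2 means replicate 1 highest and replicate 2 lowest), and the normalized count in every library on a log axis; lines are means of 3. A wide day 0 range is what chose these loci; the position of the day 6 symbols relative to it differs, from inside it in XLOC_027560 to wholly below it in XLOC_008497 and wholly above it in XLOC_005551.

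Set against the day 0 range, the day 6 level of most members overlapped it. All 3 day 6 values were above all day 0 values in 30 members (17.3%), where the percentage over all 17145 tested loci was 29.5%. They were below in 39 members (22.5%), where it was 27.7%, and overlapped in 104 (60.1%). Among the 8702 other loci 31.8% were above, 23.7% below and 44.5% overlapping. A wide day 0 range makes overlap more frequent by the choice of members, and nothing is read from these counts.

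Calls with limma at an adjusted p under 0.05 were made for 26 members higher at day 6 (15.0%) and 36 lower (20.8%), beside 22.2% higher and 21.8% lower over the 17145 tested loci. All 173 members passed the filter on low values. Their median log2 change was -0.13 with a median SE of 0.53, and over all tested loci the median change was 0.02 with a median SE of 0.28. The day 0 spread that chose the members enters this error. Without day 0 replicate 2, 31 members were called higher and 66 lower; without day 0 replicate 1 the counts were 44 and 32, and without day 0 replicate 3 they were 18 and 31. Over all loci the same fits called 4530 higher and 4360 lower, 4331 and 4127, and 3327 and 3181, against 3799 and 3744 with all libraries. Leaving out any 1 day 6 library gave 13 or 14 members higher and 19 to 22 lower, with 2547 to 2832 and 2596 to 2940 over all loci. By edgeR with TMM 19 members were called higher and 53 lower, with 3416 and 4077 over all loci. By DESeq2 the counts were 25 and 64 among members, and 3917 and 4361 over all loci.

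By order of the day 0 libraries, day 6 was called higher in 16 and lower in 10 of the 83 loci with replicate 1 highest and replicate 2 lowest. In the 44 loci with replicate 3 highest and replicate 2 lowest it was called higher in 6 and lower in 14. Of the 21 loci with replicate 2 highest and replicate 1 lowest, 1 was called higher and 7 lower. The median ratio of day 6 to day 0 mean was 0.94 in the 83 loci, 0.582 in the 44 and 0.26 in the 21. Over all tested loci 22.2% were called higher and 21.8% lower. The groups were formed from the day 0 values that also enter these calls, so nothing is read from their counts.

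The highest ratio of day 6 to day 0 mean, 19.0, was that of XLOC_027869 (chromosome 5, 114243687 to 114250361, minus strand, up to 2 exons). It had 11133, 13249 and 8301 normalized counts at day 6 and 656.0, 190.6 and 877.5 at day 0, and the stages were far apart (log2 change 4.48, SE 0.51, limma adjusted p = 0.000287). XLOC_033289 (chromosome 7, 106367594 to 106387121, minus strand, up to 6 exons) followed with 9057, 8609 and 6156 normalized counts at day 6 and 1030, 205.1 and 354.0 at day 0. At the other end, XLOC_004799 (chromosome 11, 81849079 to 81850954, plus strand, up to 3 exons) had 189.6, 249.1 and 231.7 at day 6 and 6200, 3020 and 24153 at day 0. In each of these loci the values of the 2 stages did not overlap.

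**Figure D4:**
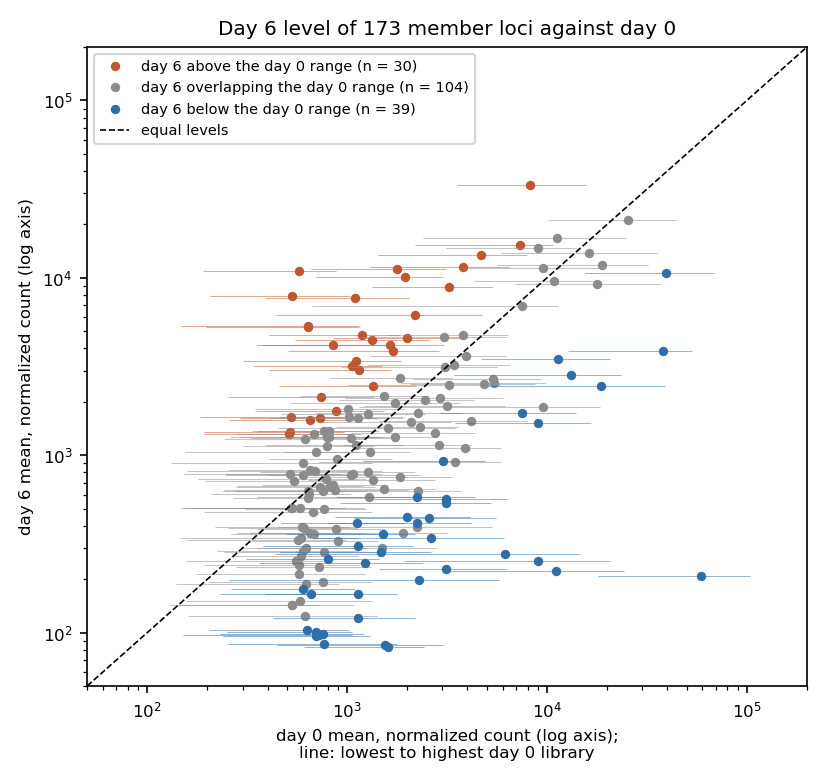
Points give the mean normalized count at day 6 against that at day 0 for the 173 members, on log axes, and horizontal lines run from the lowest to the highest day 0 library. Day 6 lay above the day 0 range in 30 loci, overlapped it in 104 and lay below it in 39.

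The day 6 libraries were used by the rule only through a minimum level, so the spread among them is a separate measurement. The median SD of the log2 values at day 6 was 0.224 in members and 0.0887 in the other loci, and 0.142 over all tested loci. At day 0, where the rule chose the members, it was 1.20 in members, 0.298 in the other loci and 0.4 over all tested loci, so the day 6 libraries were the closer ones in each of these sets. Day 6 replicate 3 was the highest of its stage in 83 of the 173 members and in 2638 of the 8702 other loci. Without it the median day 6 SD was 0.13 in members and 0.0651 in the other loci. The median ratio of largest to smallest day 6 value was 1.35 in members and 1.12 in the other loci. It was at least 2 in 14 members (8.09%) and in 0.529% of the other loci, and no member reached 4.

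Members were also less abundant, with a median day 6 mean of 954.4 normalized counts against 5387 in the other loci. Among loci with a day 6 mean between 363.2 and 2516, the middle range of the members, the median SD was 0.204 in 87 members and 0.117 in 2317 other loci. The median ratios were 1.32 in members and 1.17 in other loci. No test was run on this difference. The day 6 replicate with the highest value had the same number as the highest day 0 replicate in 42.8% of members and 44.7% of the other loci.

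The largest day 6 ratio, 3.16, was that of XLOC_027119 (chromosome 5, 118619088 to 118639621, plus strand, up to 2 exons). Its values were 680.3, 365.0 and 1153 normalized counts at day 6 and 1240, 179.2 and 921.3 at day 0, so replicate 2 was lowest at both stages. XLOC_002350 (chromosome 10, 33624779 to 33638265, plus strand, up to 6 exons) had a day 6 ratio of 3.11, with 316.3, 507.4 and 985.4 normalized counts at day 6 and 682.2, 208.2 and 1045 at day 0. There replicate 3 was highest at both stages. These replicate numbers name libraries, and the labels do not say whether same-numbered libraries of the stages are paired. The main fit used no pairing.

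**Figure D5:**
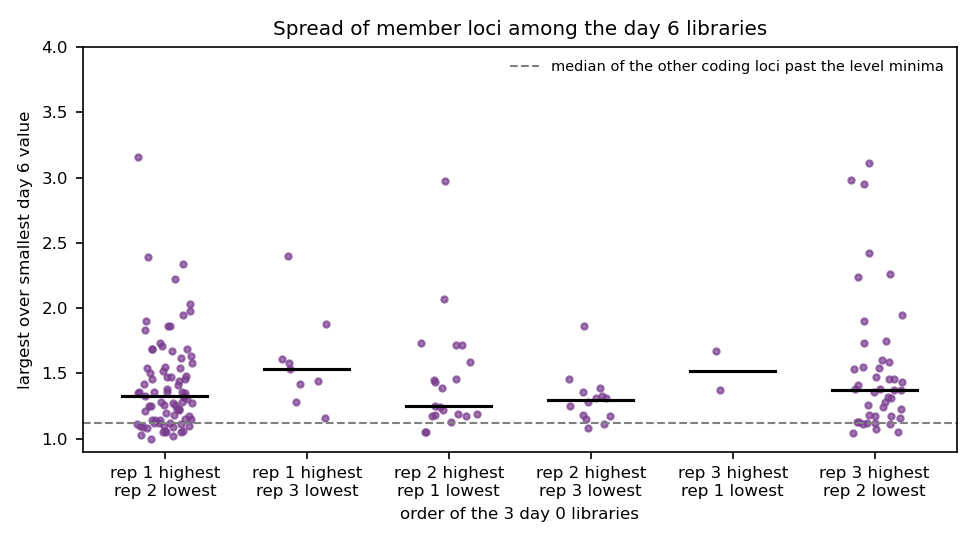
Each point is 1 member locus, placed by its order of day 0 libraries, and the vertical axis is the ratio of the largest to the smallest day 6 value. Black lines are group medians, from 1.25 to 1.53, and the dashed line is the median of the other coding loci, 1.12.

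In gene structure the members were somewhat shorter than the other loci. Their exons covered a median of 7011 bases against 8926, with a median of 10 exons in the longest transcript against 12, and 6 transcript models in both sets. No exonic base was shared with another locus in 78.0% of members and in 57.6% of the other loci, and more than 50% was shared in 8 members (4.62%) against 11.0%. The sources used here do not say whether reads were counted by strand, so reads of overlapping loci on opposite strands may not be separable.

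Some members lay next to each other. How many neighbouring pairs 173 members among 13764 coding loci would give by density alone was not computed. Nothing is read from their number or shared order. Of all consecutive coding loci, 5 pairs consisted of 2 members, 4 of them with the same order of day 0 libraries, and no run of 3 was found. Of these 4, all but 1 had replicate 3 highest and replicate 2 lowest. XLOC_000143 and XLOC_000942 lay on chromosome 1 at 45368383 to 45560286 on opposite strands, 24542 bases apart. XLOC_003383 and XLOC_003384 lay on chromosome 10 at 76058501 to 76188961, and XLOC_002865 and XLOC_002866 on chromosome 10 at 96942134 to 97035337, each pair on 1 strand. The fourth, XLOC_028094 and XLOC_027241 on chromosome 5 at 135548766 to 135615737, had replicate 1 highest and replicate 2 lowest.

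Other counted loci within 10000 bases of a member, with a day 0 mean of at least 100, no shared exonic base and not members themselves, were compared with those near the other loci. This comparison was added after values were seen. Near members 30 of 100 pairs had the same order of day 0 libraries (30.0%), against 22.1% of 6035 pairs near the other loci. The neighbour's own day 0 ratio was at least 4 in 12 of the 100 pairs (12.0%) and in 1.97% of the 6035, with median ratios of 1.71 and 1.54. Since members were left out, coding neighbours with a ratio of at least 4 all fell short of a level minimum of the rule. Neighbours were not matched on level, and the difference between these shares was not tested.

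The threshold cuts through a continuous range of ratios. The members nearest above it were XLOC_027876, with a day 0 ratio of 4.004, and XLOC_031314, with 4.03. The nearest below it were XLOC_005561, with 3.996, and XLOC_025179, with 3.991. Among the 8702 other loci 17.5% had a day 0 ratio of at least 2. Counting error was small beside a 4-fold range: the smallest read count of a member in a day 0 library was 127, with an exact 95% Poisson interval of 106 to 151, which covers counting error only.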

How the data were processed

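Poly(A) RNA of 6 libraries was analysed, 3 at day 6 and 3 at day 0, grouped by the labels. Build mm9, DESeq, HTSeq 0.5.4p3, Cufflinks 2.1.1 and TopHat2 2.0.8 are named, without roles, per the submitters' processing notes. The authors deposited a signal per locus, which is read counts divided by size factors: 100% of values in each column were whole multiples of 1 step within 0.01 reads. Positions, class codes and protein identifiers come from the deposited assembly. No genome of that build was used, so no sequence is shown.

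Stages were compared with limma 3.58.1 (R 4.3.3, trend and robust) on log2(normalized count + 1), a scale that understates changes of low loci, over 17145 loci that reached 10 normalized counts in 3 or more libraries. Tests were two-sided with Benjamini-Hochberg adjustment and a threshold of 0.05. Steps were tested on simulated counts with the same variation in both stages, so that test did not cover the wider spread at day 0. edgeR 4.0.16 and DESeq2 1.42.0 on the recovered reads, other scalings, filters and left-out libraries were alternatives. Tables and figures were made with Python 3.11.15, pandas 2.3.3 and matplotlib 3.10.9.

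Named loci were, per order of the day 0 libraries, the 2 with the highest day 0 mean and the 2 with the largest day 0 ratio. Over all members they also were the 2 with the highest and the lowest ratio of day 6 to day 0 mean, the 2 with the largest day 6 ratio, and the 2 nearest each side of the threshold. Members lying next to each other were named after their values were seen. The members and rules were chosen with earlier results of these data known. Columns left unused numbered 0. No molecular identifiers are described, so PCR copies may be counted more than once.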

Additional observations from a re-analysis of the deposited data

How the results depend on the processing

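The number of members followed the thresholds and the libraries. A ratio of at least 3 gave 450 members, 313 of them with replicate 2 lowest, with day 6 below the day 0 range in 109, overlapping in 243 and above in 98. A ratio of at least 6 gave 47, 30 with replicate 2 lowest, with 11 below, 32 overlapping and 4 above. A day 0 mean of at least 1000 gave 101 members, 71 with replicate 2 lowest, 53 overlapping and 18 above, and one of at least 200 gave 260, with 193, 164 and 52. With no day 6 minimum 59 members lay below. Scaling to the library total gave 223 members with replicate 2 lowest and 49 above, and quantile normalization 19 above. Leaving out 1 day 0 library gave 16 to 118 members, with replicate 2 lowest in 49 to 95 where it was kept. With 1 library left out, 7 to 48 members lay below, 9 to 103 overlapped and 0 to 34 lay above. The median day 6 SD then ran from 0.13 to 0.339 and the median day 6 ratio from 1.14 to 1.60. Members called higher numbered 13 to 44 and lower 19 to 66 when 1 library was left out, and over all loci 2547 to 4530 were called higher and 2596 to 4360 lower. Members called lower numbered 64 with DESeq2, with 4361 over all loci. Members called higher numbered 16 with neither trend nor robust estimation, with 3445 over all loci. With replicate number as a block, 38 members were called higher and 59 lower, and 3898 and 3954 over all loci. Correlations of the deviations of same-numbered libraries of the stages were 0.176, 0.134 and 0.074. Those of differently numbered libraries ran from -0.138 to -0.007. The labels give no pairing beyond the number, and whether the libraries are paired was not tested. Every library correlated best with its own number. The deviations were taken from the mean of each stage, so these correlations depend on each other, and nothing is read from them. With edgeR 19 members were called higher and 53 lower, and 3416 and 4077 over all loci. Of the 13 named loci that were called, 8 kept call and direction under all alternatives and 5 lost the call in at least 1 (XLOC_032619, XLOC_005551, XLOC_000705, XLOC_029037 and XLOC_031314); none (0) turned direction. Of the 16 not called, 9 were called in the same direction in at least 1 alternative, and 8 turned direction in at least 1. XLOC_019777, not among the 9, was called lower without day 0 replicate 2 (log2 change -0.70, limma adjusted p = 0.039). The log2 change turned with edgeR and DESeq2 to -0.15 and -0.14 in XLOC_019777, -0.13 and -0.11 in XLOC_027119, -0.13 and -0.12 in XLOC_002350, and -0.10 and -0.08 in XLOC_025179. Leaving out 1 library, the log2 change ran from 0.00 to 1.61 in XLOC_025804, -0.56 to 0.51 in XLOC_027560, -0.99 to 0.23 in XLOC_024471, and -0.70 to 1.34 in XLOC_019777. It ran from -0.70 to 0.70 in XLOC_027119, -0.64 to 0.52 in XLOC_002350, -0.19 to 0.80 in XLOC_005561, and -0.42 to 0.58 in XLOC_025179. The cause of these shifts was not tested. With 3 libraries per stage, a day 0 library that stands apart cannot be told from variation between cultures.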
